A study of Arabidopsis thaliana with 2 samples.

Results

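Type I MADS-box genes of Arabidopsis thaliana were examined for peaks of 2 DNA-binding complexes, SEP3Δtet3M-AG and SEP3Δtet-AGΔtet. The genes were chosen by name from the known type I branch and not by a measured value, though earlier results of these data were known. Of 58 names, 49 were found by symbol among the 27444 protein-coding genes on chromosomes 1 to 5 of the TAIR10.1 RefSeq gene table: 18 of subgroup Mα, 18 of Mβ and 13 of Mγ. The other 9 names (AGL40, AGL60, AGL73, AGL74, AGL84, AGL100, AGL47, AGL35 and AGL45) were matched to no symbol or synonym and were not analysed here.

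MADS-domain proteins are transcription factors that bind DNA as dimers, at an AT-rich element called the CArG box. The type II branch holds the floral organ and flowering-time regulators, among them SEPALLATA3 (SEP3) and AGAMOUS (AG), whose dimers can join into tetramers through a keratin-like domain. The type I branch lacks that domain. Its members are mostly small genes with few or no introns, and several are known from the female gametophyte, the endosperm and the young seed.

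Each complex was measured once, by seq-DAP-seq, a sequential form of DNA affinity purification with sequencing, in which tagged proteins made outside the plant select fragments of purified genomic DNA. Both used DNA of untreated 2-week-old seedlings, with no chromatin and no seed tissue involved. Both complexes carry changes that the series describes as affecting tetramer formation. The genotype label reads SEP3Δtet3M-AG for both samples, so the complexes were told apart by their titles, and the labels do not say what 3M stands for. The SEP3Δtet3M-AG list held 1681 peaks and the SEP3Δtet-AGΔtet list 2277, all 400 bp wide, as positions with no score. The depth behind the lists is unknown, each complex has 1 list, and no replicate error could be estimated, so counts of genes are given without a test.

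Any gene whose span, extended by 3000 bp at each end, held the midpoint of a peak was taken to have a peak. By this rule 8 of the 49 type I genes had a peak with SEP3Δtet3M-AG (16.3%, exact 95% Clopper-Pearson interval 7.32 to 29.7), against 12.0% of the 27395 other protein-coding genes and 9.48% of those spanning 1500 bp or less. With SEP3Δtet-AGΔtet 15 had one (30.6%, interval 18.3 to 45.4), against 15.8% of other genes and 12.8% of the short ones. The interval for SEP3Δtet3M-AG includes the share of other genes, and that for SEP3Δtet-AGΔtet lies above it, though not at the wider limit of 5000 bp (interval 19.9 to 47.5, against 22.6% of other genes). These intervals cover the counting of genes only, and genes next to each other are not independent.

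All 8 genes with a SEP3Δtet3M-AG peak also had a SEP3Δtet-AGΔtet peak, so that 16.3% of the type I genes had a peak in both lists, against 8.64% of other genes. No type I gene had a peak with SEP3Δtet3M-AG alone, against 3.39% of other genes, and a count of 0 of 49 allows a share of up to 6.12%. With SEP3Δtet-AGΔtet alone 7 had one (14.3%, interval 5.94 to 27.2), against 7.14% of other genes. The split follows the longer list in the rest of the genome too: of the 2886 other genes with a peak in 1 list only, 67.8% had it with SEP3Δtet-AGΔtet. Whether the numbers reflect depth or the complex cannot be told apart with 1 list each.

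**Figure D1:**
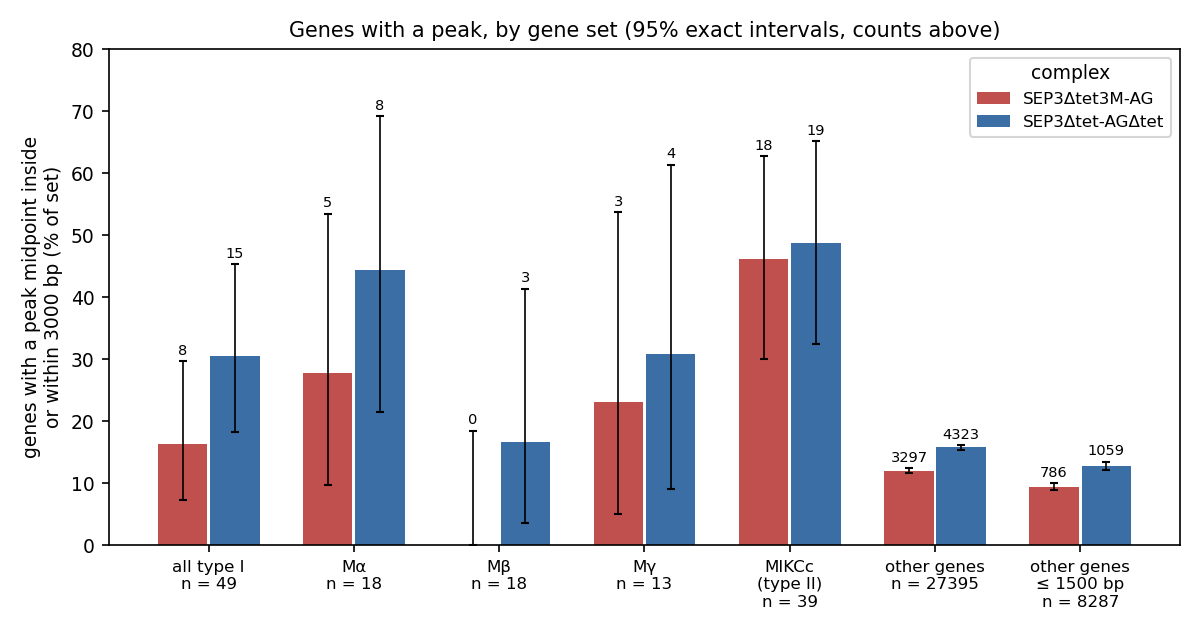
Share of genes with a peak midpoint inside or within 3000 bp (vertical axis, %), for all type I genes, their 3 subgroups, the type II MIKCc genes, other protein-coding genes and those of 1500 bp or less, with SEP3Δtet3M-AG (red) left of SEP3Δtet-AGΔtet (blue). Error bars are exact 95% intervals and the numbers above them are counts of genes; Mβ has 0 of 18 genes with SEP3Δtet3M-AG, and Mα has 8 of 18 with SEP3Δtet-AGΔtet.

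The subgroups differed in their counts. Of the 18 Mα genes, 5 had a peak with SEP3Δtet3M-AG (27.8%, interval 9.69 to 53.5) and 8 with SEP3Δtet-AGΔtet (44.4%, interval 21.5 to 69.2). Of the 18 Mβ genes, none had one with SEP3Δtet3M-AG, which allows a share of up to 16.7%, and 3 had one with SEP3Δtet-AGΔtet (16.7%, interval 3.58 to 41.4). Of the 13 Mγ genes, 3 had one with SEP3Δtet3M-AG (23.1%, interval 5.04 to 53.8) and 4 with SEP3Δtet-AGΔtet (30.8%, interval 9.09 to 61.4). The intervals of the 3 subgroups overlap within each complex, and the differences between subgroups were not tested. Of other genes, 12.0% had a peak with SEP3Δtet3M-AG and 15.8% with SEP3Δtet-AGΔtet. Only the Mα interval with SEP3Δtet-AGΔtet lies above the share of other genes. The other Mα interval, both Mγ intervals and the Mβ interval and limit include it. The Mβ counts lie near the shares of other genes or below them.

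No peak midpoint of either complex lay inside a type I gene. The count was 0 of 49 with each complex, which allows a share of up to 6.12%, where the share of other genes that held a midpoint was 3.17% for SEP3Δtet3M-AG and 3.81% for SEP3Δtet-AGΔtet. Type I genes are short, with a median span of 975 bp against 2080 bp for other genes, and 46 of the 49 span 1500 bp or less. Among other genes of that size, 0.857% held a midpoint with SEP3Δtet3M-AG and 1.15% with SEP3Δtet-AGΔtet. The limit for the type I genes lies above all 4 of these shares, so a lower share inside them was not detectable. Counting genes that any base of a 400 bp peak reaches into, SEP3Δtet3M-AG peaks reached 2 of 49 (4.08%, interval 0.498 to 14.0), against 4.21% of other genes and 1.87% of the short ones. SEP3Δtet-AGΔtet peaks reached 6 of 49 (12.2%, interval 4.63 to 24.8), against 5.17% of other genes and 2.47% of the short ones.

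The peaks of the type I genes lay close outside the gene. Counting midpoints inside the gene as within 1000 bp, 7 genes had such a peak with SEP3Δtet3M-AG (14.3%, interval 5.94 to 27.2). By the same count 6.60% of other genes and 4.24% of those of 1500 bp or less did. With SEP3Δtet-AGΔtet 12 did (24.5%, interval 13.3 to 38.9), against 8.66% of other genes and 5.95% of the short ones. Among the genes with a peak, the nearest one lay 1 to 1000 bp outside the gene for 7 of 8 type I genes with SEP3Δtet3M-AG, and for 938 of 3297 other genes (28.5%). For SEP3Δtet-AGΔtet the counts were 12 of 15 type I genes and 1330 of 4323 other genes (30.8%). Among other genes of 1500 bp or less with a peak, this share came to 35.6% for the SEP3Δtet3M-AG list and 37.6% for the SEP3Δtet-AGΔtet list. Left out of these shares are other genes with a midpoint inside, a position that no type I gene had. They made up 26.4% of other genes with a SEP3Δtet3M-AG peak and 24.1% of those with a SEP3Δtet-AGΔtet peak. Among the short ones they made up 9.03% with SEP3Δtet3M-AG and 8.97% with SEP3Δtet-AGΔtet. The comparison with short genes was chosen after the lengths were seen.

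**Figure D2:**
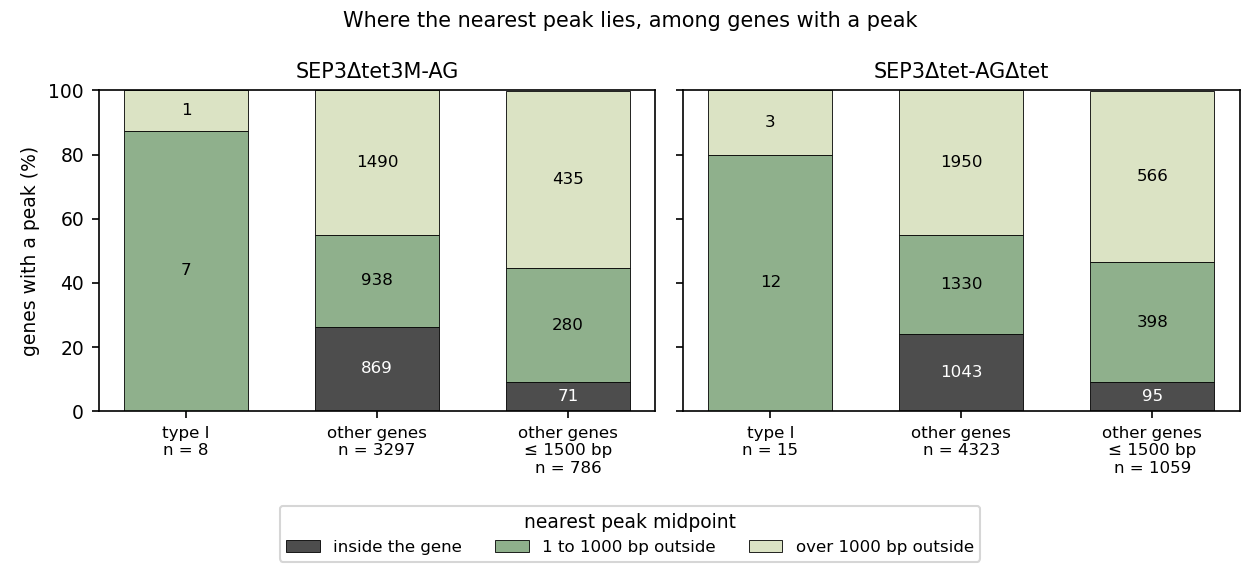
Position of the nearest peak midpoint among genes with a peak (vertical axis, % of those genes; counts inside the bars), for type I genes, other genes and other genes of 1500 bp or less, with SEP3Δtet3M-AG in the left panel and SEP3Δtet-AGΔtet in the right. Dark bars are inside the gene, green 1 to 1000 bp outside and pale over 1000 and up to 3000 bp outside; type I genes have no dark part in either panel.

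The gene edges behind these distances are those of the table, which gives a start and an end without strand, exons or untranslated regions. Upstream and downstream sides are therefore not separated. The span is a multiple of 3 bp for 31 of the 49 type I genes (63.3%), against 35.9% of other genes. For an unknown number of them the span may hold the coding sequence alone, which would put the edge inside the transcript. No source used here names the genome build of the peaks, and the distances assume that it shares the coordinates of TAIR10.1.

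Mα genes held most of the closest peaks. AGL55 had a peak midpoint 118 bp from the gene with SEP3Δtet3M-AG (chr1:22430280-22430679) and 114 bp with SEP3Δtet-AGΔtet (chr1:22430276-22430675). AGL91 had one at 143 bp with SEP3Δtet3M-AG (chr3:2091742-2092141) and at 154 bp with SEP3Δtet-AGΔtet (chr3:2091753-2092152). At both genes the 400 bp peaks reach into the gene. SEP3Δtet3M-AG peaks do so by 82 bp at AGL55 and 57 bp at AGL91, and SEP3Δtet-AGΔtet peaks by 86 bp at AGL55 and 46 bp at AGL91.

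AGL97 had its peak at 232 bp with SEP3Δtet3M-AG (chr1:17232984-17233383) and at 239 bp with SEP3Δtet-AGΔtet (chr1:17232991-17233390). At AGL57 the distances were 334 bp with SEP3Δtet3M-AG (chr3:1076057-1076456) and 323 bp with SEP3Δtet-AGΔtet (chr3:1076046-1076445). These peaks stay outside the gene, and the type I gene is the gene nearest to the peak in all 4 cases. AGL28, a gene known to promote flowering when overexpressed, had a midpoint 2000 bp away with SEP3Δtet3M-AG (chr1:195471-195870) and 1994 bp away with SEP3Δtet-AGΔtet (chr1:195465-195864). That peak lies inside the neighbouring gene AT1G01540.

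A further 3 Mα genes had a close peak with SEP3Δtet-AGΔtet and none within 3000 bp with SEP3Δtet3M-AG. AGL83 had a midpoint at 92 bp (chr5:20075037-20075436), the closest of any type I gene, and its nearest SEP3Δtet3M-AG midpoint lay 49851 bp away. AGL102 had one at 123 bp (chr1:17573297-17573696), with the nearest SEP3Δtet3M-AG midpoint at 5211 bp. For AGL99 the distance was 190 bp (chr5:1332370-1332769), against 23225 bp to the nearest SEP3Δtet3M-AG midpoint. All 3 peaks reach into the gene and have the type I gene as the nearest gene.

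Counted together, a SEP3Δtet3M-AG midpoint lay within 350 bp of 4 Mα genes and a SEP3Δtet-AGΔtet midpoint within 350 bp of 7, a limit set after the distances were seen. The whole type I group then has 4 genes with SEP3Δtet3M-AG (8.16%) and 8 with SEP3Δtet-AGΔtet (16.3%). Among other genes a nearest midpoint 1 to 350 bp outside the gene occurred in 1.60% with SEP3Δtet3M-AG and 2.22% with SEP3Δtet-AGΔtet. Left out of these are other genes with a midpoint inside, 3.17% with SEP3Δtet3M-AG and 3.81% with SEP3Δtet-AGΔtet, a position that no type I gene had. At this limit no share is given for other genes of 1500 bp or less. These shares describe the lists and were not tested.

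The 10 Mα genes without a peak in either list include the best-known members. AGL62, which holds back the formation of cell walls in the endosperm, had its nearest midpoint at 14779 bp with SEP3Δtet3M-AG and at 4007 bp with SEP3Δtet-AGΔtet. The SEP3Δtet-AGΔtet peak (chr5:24311524-24311923) lies inside ARF4, an auxin response factor. For AGL61, also called DIANA and needed for the central cell of the female gametophyte, the nearest midpoint lay 46402 bp away with each complex. AGL23, required for the female gametophyte and the embryo, had its nearest midpoint at 26920 bp with SEP3Δtet3M-AG and 12097 bp with SEP3Δtet-AGΔtet. AGL39 had one just outside the limit with SEP3Δtet3M-AG, at 3694 bp (chr5:9551048-9551447), and at 6382 bp with SEP3Δtet-AGΔtet. AGL29, AGL56, AGL58, AGL59, AGL64 and AGL85 had theirs at 17181 bp or more with SEP3Δtet3M-AG and at 7101 bp or more with SEP3Δtet-AGΔtet.

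**Figure D3:**
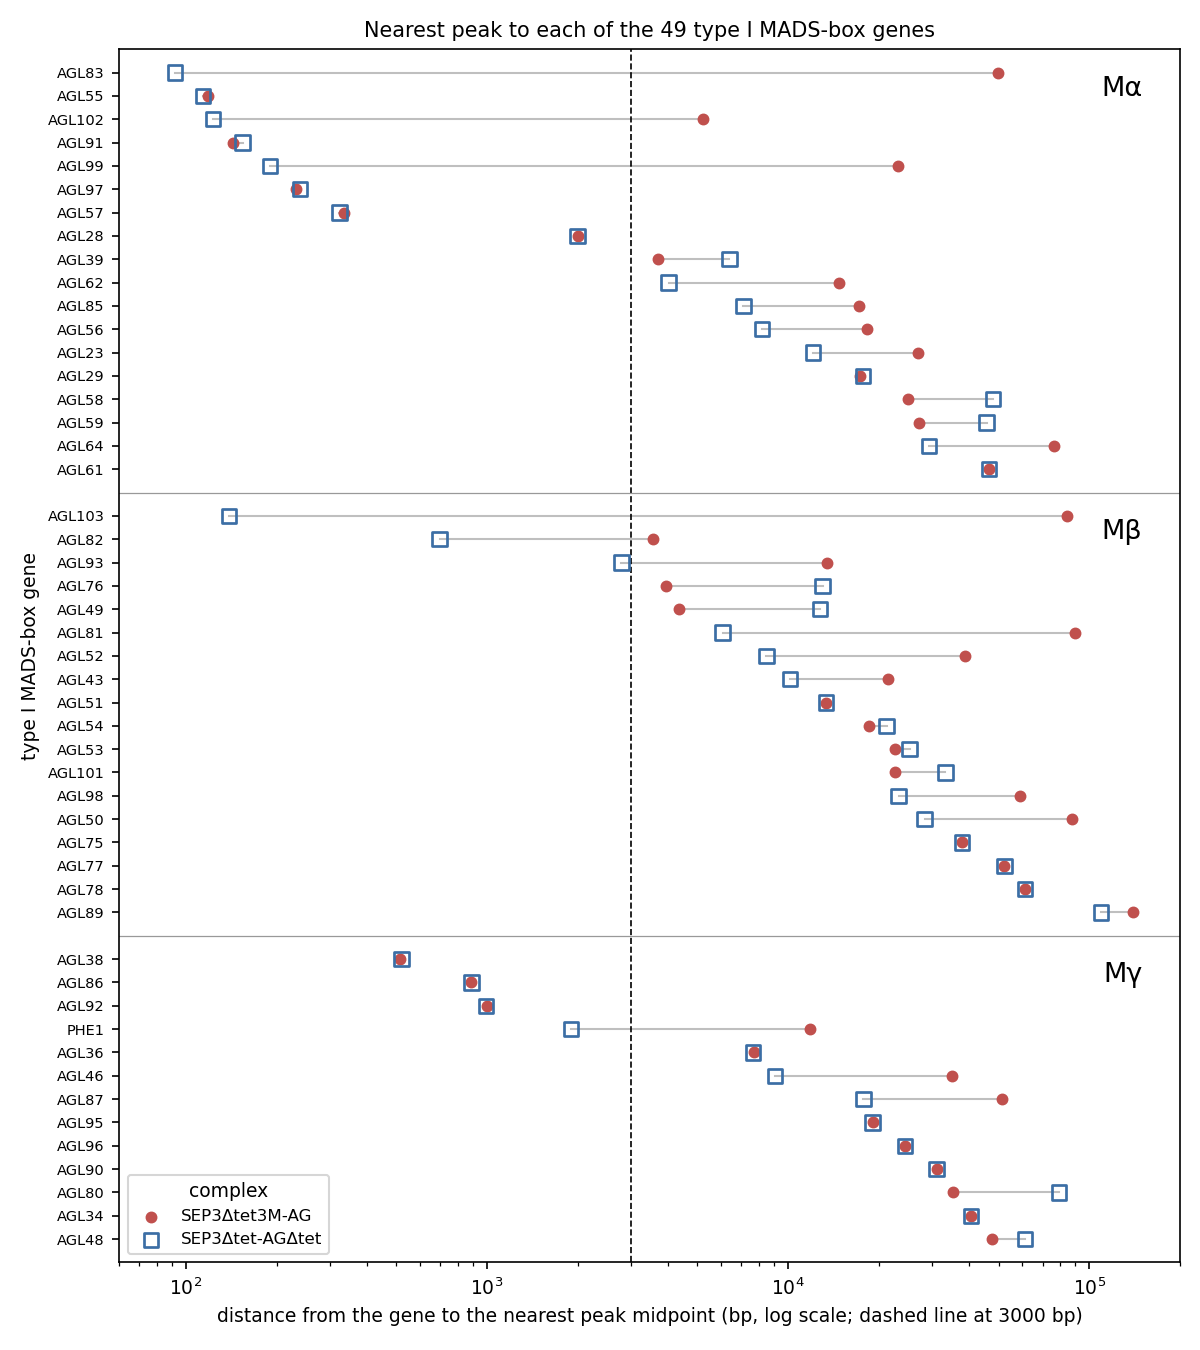
Distance from each of the 49 type I genes to the nearest peak midpoint (horizontal axis, bp, log scale), with SEP3Δtet3M-AG as filled red circles and SEP3Δtet-AGΔtet as open blue squares, 1 gene per line, grouped as Mα, Mβ and Mγ and ordered by the shorter distance; grey lines join both values of a gene and the dashed line marks 3000 bp. Left of the line lie 8 circles, each with a square close to it, and 15 squares; no Mβ circle is among them.

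Mβ genes had peaks with SEP3Δtet-AGΔtet alone. AGL103 had a midpoint at 139 bp (chr3:6418444-6418843), reaching 61 bp into the gene, against 84383 bp to the nearest SEP3Δtet3M-AG midpoint. AGL82 had one at 695 bp (chr5:23779938-23780337), against 3557 bp with SEP3Δtet3M-AG, but AT5G58880 lay nearer to that peak, at 282 bp. AGL93 had one at 2794 bp (chr5:9480258-9480657), inside DPD1, a nuclease gene that acts on organelle DNA, against 13438 bp with SEP3Δtet3M-AG. Only AGL103 is thus the gene nearest to its peak.

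The other 15 Mβ genes (AGL43, AGL49, AGL50, AGL51, AGL52, AGL53, AGL54, AGL75, AGL76, AGL77, AGL78, AGL81, AGL89, AGL98 and AGL101) had no peak within 3000 bp. Their nearest midpoint lay at 3944 to 139782 bp with SEP3Δtet3M-AG (median 37809) and at 6056 to 109338 bp with SEP3Δtet-AGΔtet (median 23280). Just outside the limit with SEP3Δtet3M-AG lay the midpoints at AGL76, 3944 bp away (chr5:16056781-16057180), and at AGL49, 4330 bp away and inside the transporter gene NAT7 (chr1:22114445-22114844). The SEP3Δtet3M-AG midpoint at AGL82, 3557 bp away, also falls there, and a SEP3Δtet-AGΔtet midpoint lies 2 bp from it. With a limit of 5000 bp 3 Mβ genes had a SEP3Δtet3M-AG peak. At that limit AGL39, AGL49 and AGL76 had a peak with SEP3Δtet3M-AG alone, so the absence of such genes at 3000 bp depends on the limit. The type I counts at 5000 bp were 12 with SEP3Δtet3M-AG (24.5%, interval 13.3 to 38.9; other genes 17.3%) and 16 with SEP3Δtet-AGΔtet (32.7%, interval 19.9 to 47.5; other genes 22.6%). Both intervals include the share of other genes.

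Mγ genes with a peak all lay on chromosome 1, which holds 5 of the 13 Mγ genes. AGL38, also called PHERES2, had a midpoint at 512 bp with SEP3Δtet3M-AG (chr1:24254218-24254617) and at 520 bp with SEP3Δtet-AGΔtet (chr1:24254210-24254609). Its close relative PHE1 (AGL37, PHERES1), an imprinted gene expressed in the endosperm from the paternal copy, lies 10399 bp away with 2 genes between them. PHE1 had a midpoint at 1904 bp with SEP3Δtet-AGΔtet (chr1:24269041-24269440), inside the cytochrome P450 gene CYP96A3, and its nearest SEP3Δtet3M-AG midpoint lay 11840 bp away. AGL38 and PHE1 shared no peak.

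AGL86 and AGL92 are neighbours 3144 bp apart with no protein-coding gene between them, and they shared a peak. Its midpoint lay 886 bp from AGL86 and 2259 bp from AGL92 with SEP3Δtet3M-AG (chr1:11320234-11320633). With SEP3Δtet-AGΔtet it lay 889 bp from AGL86 and 2256 bp from AGL92 (chr1:11320237-11320636). AGL92 had a further peak on its other side, at 997 bp with SEP3Δtet3M-AG (chr1:11324974-11325373) and 992 bp with SEP3Δtet-AGΔtet (chr1:11324969-11325368). It was thus the only type I gene with 2 peaks within 3000 bp in a list, and it had 2 in each.

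The 9 Mγ genes without a peak had their nearest midpoint at 7675 to 51225 bp with SEP3Δtet3M-AG and at 7629 to 79288 bp with SEP3Δtet-AGΔtet. They include AGL80, needed with AGL61 for the central cell, at 35295 bp with SEP3Δtet3M-AG and 79288 bp with SEP3Δtet-AGΔtet. AGL36, an imprinted gene expressed from the maternal copy, was the closest of them with each complex. AGL34, AGL46, AGL48, AGL87, AGL90, AGL95 and AGL96 complete the group.

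**Figure D4:**
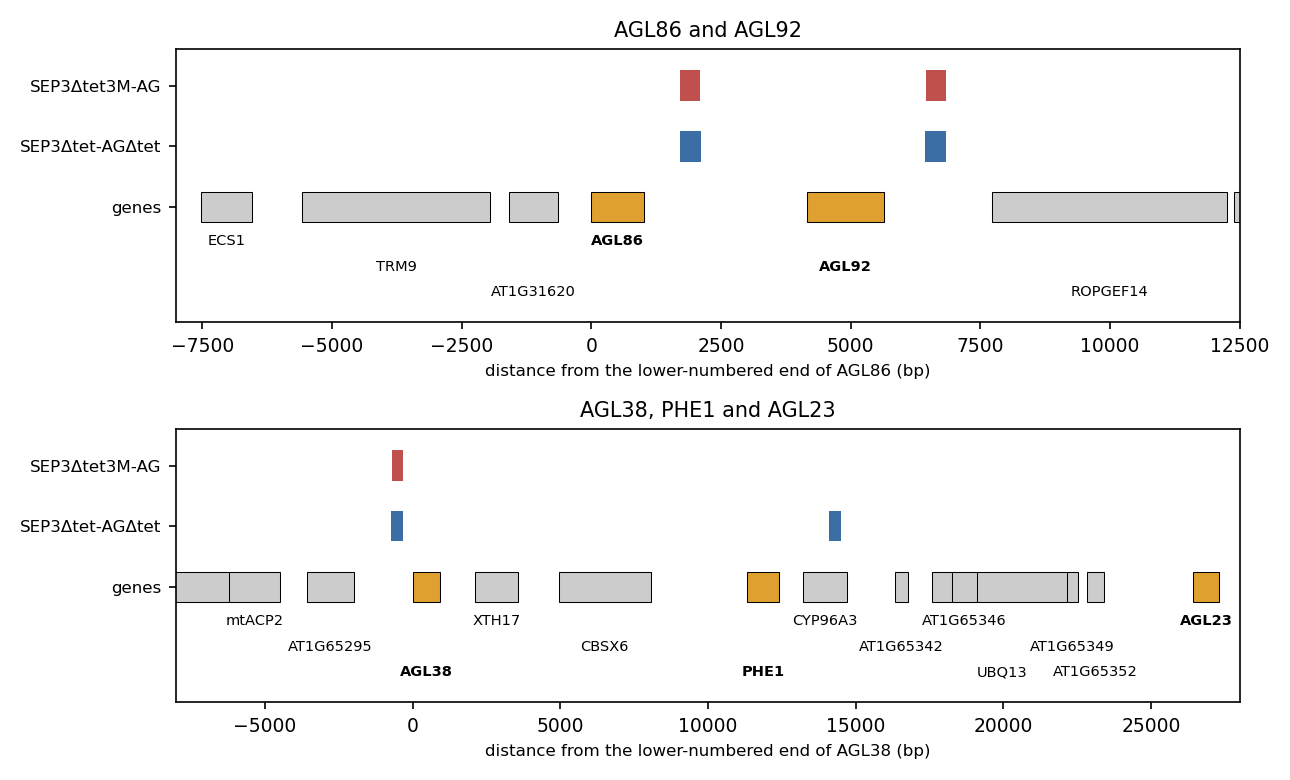
Peaks and genes around AGL86 and AGL92 (top) and around AGL38, PHE1 and AGL23 (bottom), by distance in bp from the lower-numbered end of AGL86 or AGL38 (horizontal axis), with SEP3Δtet3M-AG peaks in red, SEP3Δtet-AGΔtet peaks in blue, type I genes in orange and other protein-coding genes in grey. Both complexes have a peak between AGL86 and AGL92, another beyond AGL92 and one next to AGL38; the peak inside CYP96A3, past PHE1, appears with SEP3Δtet-AGΔtet alone.

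Sharing of a peak between type I genes was otherwise absent within 3000 bp. Consecutive type I genes no more than 20 kb apart formed 8 pairs with 13 genes, among them the adjacent Mα genes AGL58 and AGL59 (1648 bp apart) and a row of Mβ genes on chromosome 5 (AGL101, AGL53 and AGL54) followed by AGL39. A peak lay near at least 1 gene in 4 of these pairs, and AGL86 with AGL92 was the only pair with a peak in common. Counted as 1 locus, they lower the type I count to 7 with SEP3Δtet3M-AG and 14 with SEP3Δtet-AGΔtet.

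Genes outside the family shared every peak at the type I genes. Each of the 8 SEP3Δtet3M-AG peaks and each of the 15 SEP3Δtet-AGΔtet peaks had at least 1 other protein-coding gene within 3000 bp of its midpoint. Over the whole lists, 76.9% of the SEP3Δtet3M-AG peaks with a gene in range had 2 or more, and 76.4% of the SEP3Δtet-AGΔtet peaks, so such sharing is common. XTH17, a gene of cell wall remodelling, and AT1G65295 share the AGL38 peak. The peak at AGL55 lies within 3000 bp of the helicase gene RECQ4B, AT1G60900 and AT1G60913. The peak at AGL93 has DPD1, the immunity regulator CBP60G, GATA23 and AT5G26955 in range. A type I gene was the nearest gene for 7 of the 8 SEP3Δtet3M-AG peaks and for 11 of the 15 SEP3Δtet-AGΔtet peaks; the exceptions are the peaks of AGL28 with both complexes and those of AGL82, AGL93 and PHE1 with SEP3Δtet-AGΔtet. Counted as pairs of a gene and a peak in range, the type I gene was the nearest in 7 of 9 pairs with SEP3Δtet3M-AG (77.8%), against 44.8% of pairs of other genes. With SEP3Δtet-AGΔtet it was in 11 of 16 pairs (68.8%), against 45.3%. These shares rest on few pairs and were not tested, and none is given for other genes of 1500 bp or less. As 8 of the 15 SEP3Δtet-AGΔtet peaks overlap the SEP3Δtet3M-AG peaks, the lists do not count separate sites.

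Where both complexes had a peak at a type I gene, it was at the same place. All 8 SEP3Δtet3M-AG peaks there overlapped a SEP3Δtet-AGΔtet peak, where 67.6% of the whole SEP3Δtet3M-AG list did. Their midpoints lay 3 to 11 bp apart, with a median of 6.5 bp against 8 bp over all overlapping peaks. With SEP3Δtet-AGΔtet, 8 of the 15 peaks at type I genes had such an overlap, against 49.7% of its whole list. The 7 that did not were those at AGL83, AGL99, AGL102, AGL82, AGL93, AGL103 and PHE1.

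The type I genes with peaks were also counted by chromosome, a description made after the positions were seen and not tested. On chromosome 1, 6 of 17 had a peak with SEP3Δtet3M-AG (interval 14.2 to 61.7, other genes 11.9%). With SEP3Δtet-AGΔtet 8 of these 17 had one (interval 23 to 72.2, other genes 15.8%). AGL86 and AGL92, which share a peak, are both among them. On chromosome 3, 2 of 3 had one with SEP3Δtet3M-AG (interval 9.43 to 99.2, other genes 12.5%) and all 3 with SEP3Δtet-AGΔtet (interval 29.2 to 100, other genes 16.4%). On chromosome 5, 0 of 22 had one with SEP3Δtet3M-AG, which allows a share of up to 13.6% (other genes 11.8%). With SEP3Δtet-AGΔtet 4 of these 22 had one (interval 5.19 to 40.3, other genes 15.4%). Both ranges include the share of the other genes there. None of the 5 genes on chromosome 2 had one, which allows a share of up to 60%, where 12.4% of other genes there had one with SEP3Δtet3M-AG and 16.0% with SEP3Δtet-AGΔtet. Neither of the 2 genes on chromosome 4 had one, and so few genes set no useful limit. Of the 18 Mβ genes 13 lie on chromosome 5, so subgroup and chromosome overlap in these counts. On that chromosome 2 of 4 Mα genes, 2 of 13 Mβ genes and 0 of 5 Mγ genes had a SEP3Δtet-AGΔtet peak.

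The 15 type I genes with a peak spanned 537 to 1485 bp (median 929) and the 34 without one 363 to 2613 bp (median 991.5). None of the 49 lay in a gene-poor window, a 500 kb stretch holding under 0.5 times as many protein-coding genes as the median stretch of its chromosome, where 3.81% of other genes lie. Across the group, the nearest midpoint lay at a median of 22643 bp with SEP3Δtet3M-AG, against 21368 bp for other genes. With SEP3Δtet-AGΔtet the medians were 12097 bp and 15690 bp. In both lists 30 of the 49 genes had no midpoint within 5000 bp.

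Type II genes of the MIKCc class had peaks inside the gene as well as beside it. Of 39 such genes, 18 had a peak with SEP3Δtet3M-AG (46.2%, interval 30.1 to 62.8) and 19 with SEP3Δtet-AGΔtet (48.7%, interval 32.4 to 65.2), where the shares of other genes were 12.0% and 15.8%. With each complex 12 of the 39 held a midpoint inside the gene (30.8%, interval 17.0 to 47.6), against 0 of 49 type I genes. Among other genes that share was 3.17% for SEP3Δtet3M-AG and 3.81% for SEP3Δtet-AGΔtet. They span 1845 to 6067 bp (median 3753), against 363 to 2613 bp for type I genes, and the part of length in this contrast was not tested. With SEP3Δtet3M-AG alone 4 MIKCc genes had a peak (10.3%, interval 2.87 to 24.2), against 0 of 49 type I genes and 3.39% of other genes. That count of 0 holds at 3000 bp and not at 5000 bp. With SEP3Δtet-AGΔtet alone 5 MIKCc genes did (12.8%, interval 4.3 to 27.4), against 14.3% of type I genes and 7.14% of other genes. Both of these MIKCc intervals include the share of other genes, and the contrast with type I genes was not tested. Of the 6 genes of the MIKC* class, type II genes known mostly from pollen, AGL30 had a midpoint inside the gene with both complexes and AGL94 with SEP3Δtet-AGΔtet alone.

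Other genes of the gametophyte and seed, where several type I genes act, were set beside them. Of 16 named genes, 0 had a peak with SEP3Δtet3M-AG, which allows a share of up to 18.8%, and 3 had one with SEP3Δtet-AGΔtet (18.8%, interval 4.05 to 45.6). These were MEA and FIE, subunits of the Polycomb complex of the endosperm, with midpoints at 96 and 207 bp, and the seed-size regulator MINI3, at 2285 bp. Other protein-coding genes had shares of 12.0% with SEP3Δtet3M-AG and 15.8% with SEP3Δtet-AGΔtet. FIS2, MSI1, DME, IKU1, IKU2, SHB1, CKX2, YUC10, TAR1, ZOU, ICE1, MYB98 and LURE1.2 had none within 3000 bp in either list.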

How the data were processed

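The authors deposited 1 peak list per complex, with chromosome, start and end and no other column. Per the submitters' processing notes Bowtie2, SAMtools and MACS2 were used; no source used here gives their versions and settings, the build, the read depth or any pooling. Starts were turned to counting from 1, and the midpoint stood for the peak. Members were matched by symbol or synonym to the TAIR10.1 RefSeq gene table. The members, the subgroups and the comparison lists were chosen with earlier results of these data known. A gene was called with a midpoint inside it or within 3000 bp, and peaks were called shared with at least 1 bp in common. Shares carry exact 95% Clopper-Pearson intervals, and a count of 0 is given the limit of 3 counts. No test was run, since each complex has 1 list. Every type I gene with a peak in either list was named, then those with one within 5000 bp; genes farther away are named as background or to complete the account. The calls were tested on simulated peaks around 200 genes, with 200 right. Python 3.11.15, NumPy 2.4.6, SciPy 1.17.1 and matplotlib 3.10.9 were used.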

Additional observations from a re-analysis of the deposited data

How the results depend on the processing

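The 9 counts of type I genes with a peak (all members, both lists, and each subgroup with each complex) were recomputed under flanks of 1000 and 5000 bp, any base of the peak in place of its midpoint, the nearest gene only, no gene-poor windows, neighbours as 1 locus and merged peaks, and, added after seeing the data, genes of 1500 bp or less. The count in both lists was also taken with overlaps of at least 1 and 200 bp. Some recomputed counts could not change, as no type I gene lay in a gene-poor window and those with a peak spanned at most 1485 bp. Nor could the Mα and Mβ counts with neighbours as 1 locus, as the only pair sharing a peak is Mγ. Merging peaks left the counts of other genes unchanged too. The number that stayed the same therefore overstates how stable the counts are. Of 74 recomputed counts, 72 stayed within 1.5 times the reported one, a factor that leaves out the shares of other genes. The exceptions are Mβ: 3 genes in place of 0 with SEP3Δtet3M-AG at 5000 bp, and 1 in place of 3 with SEP3Δtet-AGΔtet when a peak was given to its nearest gene only, since AGL82 and AGL93 are not the nearest. At 5000 bp the interval of the SEP3Δtet-AGΔtet share (19.9 to 47.5%) no longer lay above the share of other genes (22.6%). With the nearest gene only, the type I counts were 7 with SEP3Δtet3M-AG (5.54% of other genes) and 11 with SEP3Δtet-AGΔtet (7.45% of other genes). No stricter peak threshold could be tried, as the lists used here hold no scores. No paired analysis was possible because each complex has 1 list. Depth is unknown, so a gene without a peak may be one whose binding was not detectable.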
